A study of Homo sapiens with 15 samples.

Results

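The members are 9 genes of the complement system, followed across IL-13 treatment of A549 cells: the components C3, C5, CFB, C1S and C1R, the soluble regulator CFI, and the membrane regulators CD46, CD55 and CD59. They were taken by gene symbol from the annotation of the array, and all their probe sets were kept, which gave 16 of the 22283 probe sets. The list was drawn up knowing that C3 was higher at 24 h of IL-13, so differences between the 24 h groups are given for the members as a description, with no p-value, and how many passed the threshold is printed only beside the share over all sets. Of the 16 probe sets, 13 passed the filter on dim signal. They cover 7 of the 9 genes, and CFB and CFI are the genes that did not pass.

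A549 cells, called a bronchial line in the labels, are known as an epithelial line from a lung adenocarcinoma. They were measured on Affymetrix human expression arrays in 5 groups of 3 arrays each: untreated at 0 h, IL-13 treatment of 4 h, 12 h or 24 h, and a control harvested at 24 h. The labels give no IL-13 dose and no genetic change in any group. No control arrays at 4 h or 12 h were analysed here, so at those times IL-13 and time in culture cannot be told apart. The labels also do not say whether the arrays of a group came from separate cultures, so the p-values rest on array-to-array spread that could be technical alone.

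The cells carried an epithelial profile. The keratin KRT18 had a signal of 9605 to 12608 over the 15 arrays, and 5 of 7 epithelial marker genes passed the filter. EPCAM and CLDN4 did not. Of the other marker lists, 2 of 5 measured alveolar type II genes, 2 of 7 leukocyte genes, 2 of 7 fibroblast genes, 1 of 5 endothelial genes and 1 of 5 hepatocyte genes passed. Array medians lay between 56.7 and 72.5 signal units, and arrays of one group correlated at 0.972 to 0.979. In bulk RNA, fewer cells of a type and less RNA per cell cannot be told apart.

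Complement is a cascade of serum proteins that can also be made locally, by airway epithelium among other tissues. C1R and C1S are the proteases of the classical pathway's first complex, CFB supplies the protease of the alternative pathway, and all routes meet at the cleavage of C3 and then of C5. Host cells hold the cascade back with regulators: CFI cuts activated C3 and C4 fragments, CD46 is its cofactor on the membrane, CD55 takes the convertase enzymes apart, and CD59 blocks the final pore-forming complex. IL-13 is a cytokine of type 2 immunity that signals through STAT6, and C3a, a fragment of C3, has been tied to airway hyperresponsiveness in mouse models of asthma.

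At 24 h of IL-13 the 4 sets of CD59, 2 of CD46, 1 of CD55 and those of C1S and C3 were higher than at 0 h, and no tested member set was lower. A probe set was called at an adjusted p under 0.05, by limma over all 11107 tested sets. Against 0 h, 9 of the 13 tested member sets were called at 24 h of IL-13, all higher, while 6.18% of all sets were called, 2.91% higher and 3.27% lower. The arrays of 12 member sets did not overlap there, as those of 25.5% of all sets. These counts include C3 and use the 24 h IL-13 arrays on which the list was drawn up, so they too are a description. The adjusted p-values given below for other members at 24 h of IL-13 use the same arrays and are no independent test. The median member difference was 0.55, against 0.00 over all tested sets. Between 24 h of IL-13 and the 24 h control, 7 member sets passed, all higher (C3, C1S, 201926_s_at of CD55 and the 4 CD59 sets), and the arrays of 10 sets did not overlap. Of all sets 6.45% passed there, 3.48% higher and 2.97% lower, and 28.6% did not overlap, and nothing is read from these counts because the members were chosen on that comparison. The 716 sets that passed over the whole array became 284 without array c of the IL-13 group, 322 without array c of the control and 1446 with median scaling. The comparisons share arrays, so their counts are not independent of each other.

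At 12 h of IL-13 against 0 h, 3 member sets were higher (C3 and 2 of CD59) and 1 of CD55 was lower, with 3.99% of all sets called (1.58% higher, 2.41% lower). The groups did not overlap in 8 member sets and in 23.3% of all sets. At 4 h limma called 0 of the 13 (0.972% of all sets called, 0.333% higher and 0.639% lower). There 1 member set and 1144 of all 11107 sets had an unadjusted p under 0.05. In the 24 h control against 0 h, 1 set of CD59 was lower (4.3% of all sets called, 2.02% higher and 2.29% lower), and the median member difference was 0.13. These groups did not overlap in 8 member sets and in 29% of all sets. By limma, 4 member sets and 2235 of all sets had an unadjusted p under 0.05 there. Between 24 h and 12 h of IL-13, 2 sets of CD55 were higher (5.08% of all sets called, 3.15% higher and 1.93% lower). Between 12 h and 4 h limma called 0 of the 13 and 0 of the 11107 (0%), and 6 members and 1151 of all sets had an unadjusted p under 0.05.

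C3, the central component (chr19:6677704-6720650, GRCh38.p14), had a higher mean signal at each later IL-13 time than at the one before it. Its single probe set, 217767_at, had deposited signals of 18.3, 64.1 and 66.2 at 0 h, 61.8, 75.8 and 87.2 after 4 h of IL-13, 162, 89.9 and 128 after 12 h, and 219, 203 and 229.7 after 24 h. The 24 h controls had 77.7, 92.1 and 66.7. The 3 arrays at 24 h of IL-13 were the highest of the 15, while the 0 h and 4 h arrays overlapped, and 1 of the 0 h arrays stood far below the others. In mean and SD over 3 arrays, C3 signal was 217 ± 13.2 at 24 h of IL-13 and 78.8 ± 12.7 in the 24 h control.

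On the log2 scale after normalisation, C3 at 24 h of IL-13 exceeded the 24 h control by 1.39 ± 0.26 (SE, 95% interval 0.85 to 1.93), a 2.62-fold difference. Against 0 h it was higher by 1.81 ± 0.26 (95% interval 1.27 to 2.35). These are the values for which C3 was chosen. The comparisons of 4 h, 12 h and the control with 0 h leave out the 24 h IL-13 arrays, but they share the 0 h or control arrays with the values above. At 12 h of IL-13, C3 rose by 1.09 ± 0.26 against 0 h, 2.14-fold (limma adjusted p = 0.0218), and at 4 h the difference was 0.49 ± 0.26 (adjusted p = 0.538). Between 12 h and 4 h of IL-13 it was 0.60 ± 0.26 (adjusted p = 0.416). The 24 h control differed from 0 h by 0.42 ± 0.26 (adjusted p = 0.381).

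The 12 h call for C3 depended on single arrays. It was lost without array a of the 0 h group, the dim one, where the difference was 0.70 (adjusted p = 0.0816), without array a of the 12 h group (0.92, adjusted p = 0.103) and without array c of that group (1.09, adjusted p = 0.0704). It was also lost with no filter (adjusted p = 0.075) and in a fit of only the compared groups (0.074). Without the dim 0 h array, C3 at 24 h of IL-13 was higher than at 0 h by 1.41, the 4 h difference came to 0.10 and the control difference between 24 h and 0 h to 0.03.

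**Figure D1:**
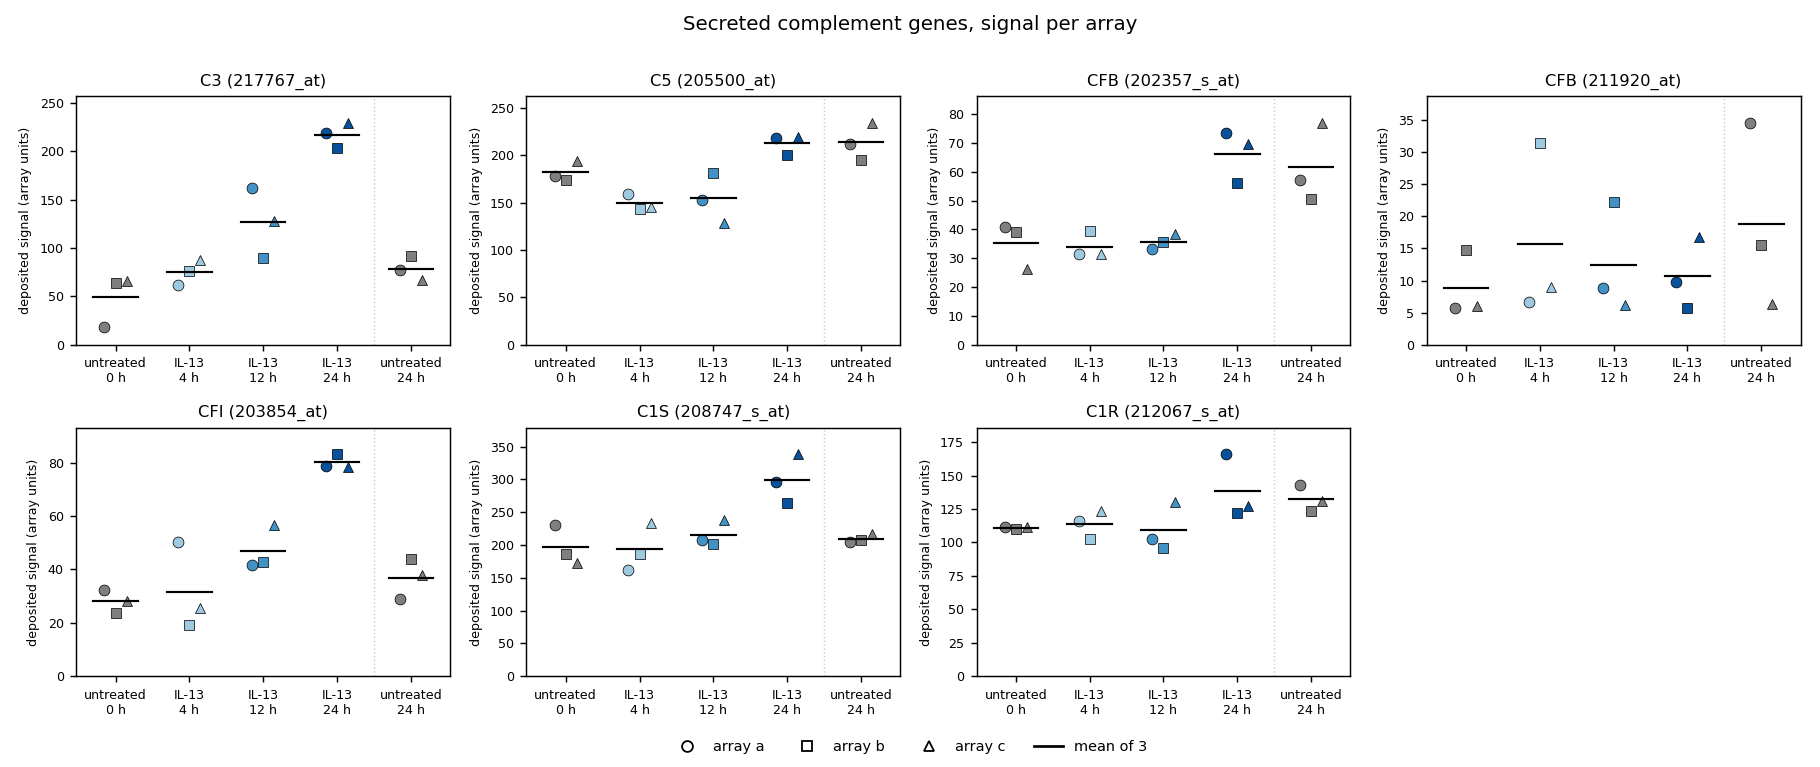
Deposited signal (linear array units, vertical axis from 0) of the 7 probe sets of the secreted complement genes on each of 15 arrays, by group along the horizontal axis; marker shapes are replicate letters and horizontal lines group means. C3 runs from 18.3 on a 0 h array to 229.7 on a 24 h IL-13 array, and CFI at 24 h of IL-13 lies above all other arrays, while C5 and C1R overlap between the 24 h groups.

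Among the other secreted components, C1S was higher at 24 h of IL-13, and C1R and C5 did not pass the test in any comparison. C1S (chr12:7060718-7071032) had signals of 231, 186 and 173 at 0 h, 161, 186 and 233 after 4 h, 208, 202 and 237 after 12 h, and 296, 265 and 338 after 24 h of IL-13, against 205, 208 and 216 in the 24 h control. The 24 h IL-13 arrays lay above all others, and the remaining groups overlapped. C1S was 0.48 ± 0.13 above the 24 h control and rose by 0.55 ± 0.13 against 0 h (adjusted p = 0.0209). That second call was lost without array b (adjusted p = 0.0731) or c (0.0968) of the 0 h group or array c of the 24 h IL-13 group (0.116).

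C1R (chr12:7080219-7092445), which lies beside C1S and encodes the protease that activates it, had signals of 166, 122 and 127 at 24 h of IL-13 and 143, 124 and 131 in the 24 h control. These groups overlapped, and the difference was 0.13 ± 0.13 (95% interval -0.15 to 0.40). Against 0 h, where the 3 arrays had 111, 109.8 and 111, the 24 h IL-13 difference was 0.26 ± 0.13 (adjusted p = 0.297).

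C5 (chr9:120952335-121074865), whose cleavage starts the terminal pathway, had signals of 218, 200.2 and 219.7 at 24 h of IL-13 and 212, 195 and 234 in the 24 h control. The difference was 0.02 ± 0.12 (95% interval -0.23 to 0.28). At 4 h and 12 h of IL-13 its signals were 159, 144 and 145, and 153, 181 and 129, below or overlapping the 0 h values of 178, 174 and 194. The 24 h IL-13 arrays were above the 12 h arrays by 0.42 ± 0.12 (adjusted p = 0.056), a difference that crossed the threshold in 6 of 18 alternative settings.

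CFB (chr6:31946095-31952084), the alternative pathway protease, was too dim to enter the test. Its set 202357_s_at had signals of 73.5, 56.0 and 69.5 at 24 h of IL-13 and 57.2, 50.7 and 77.0 in the 24 h control, which overlap. All 6 of these 24 h arrays lay above the 0 h arrays (40.8, 39.1 and 26.2) and above every 4 h and 12 h array. In a fit with no filter, the difference from 0 h was 0.63 ± 0.18 at 24 h of IL-13 (adjusted p = 0.0932) and 0.37 ± 0.18 in the 24 h control (adjusted p = 0.371). The second CFB set, 211920_at, stayed between 5.70 and 34.6 on all arrays and correlated with the first at r = 0.16 over 15 arrays.

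CFI (chr4:109730982-109801999), the protease that inactivates C3b and C4b, was also under the filter, and was highest at 24 h of IL-13. The set 203854_at had signals of 32.3, 23.8 and 28.1 at 0 h, 50.3, 19.0 and 25.6 after 4 h, 41.5, 42.6 and 56.6 after 12 h, and 78.9, 83.1 and 78.5 after 24 h of IL-13. The 24 h controls had 28.9, 44.0 and 37.8. The 24 h IL-13 arrays were above all other arrays, with a spread of 2.56 signal units (SD, n = 3) around a mean of 80.1. With no filter, CFI at 24 h of IL-13 was 0.98 ± 0.19 above the 24 h control and rose by 1.05 ± 0.19 against 0 h (2.07-fold, adjusted p = 0.00943 over all probe sets). The rise against 0 h was lost without array b of the 0 h group (0.99, adjusted p = 0.051). At 12 h the difference from 0 h was 0.42 ± 0.19 (adjusted p = 0.409), and the 24 h control differed from 0 h by 0.07 ± 0.19 (adjusted p = 0.93).

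The 250 bases before the annotated start of CFI are shown because CFI and CD59 were both higher at 24 h of IL-13 and both hold a STAT-type match there; they were picked after their values were seen. STAT-type letters were searched as TTC and GAA with any 4 bases between them, the spacing known for STAT6, and as TTCNNNGAA, the spacing known for other STAT proteins. C/EBP, NF-kB and AP-1 were searched as TTNNGNAAT, as GGG and TTCC with any 3 bases between them, and as TGANTCA, all on both strands. Sequences are from RefSeq on GRCh38.p14, 5′ to 3′ on the strand of the gene, with matches in capitals.
CFI, chr4:109802000-109802249, minus strand: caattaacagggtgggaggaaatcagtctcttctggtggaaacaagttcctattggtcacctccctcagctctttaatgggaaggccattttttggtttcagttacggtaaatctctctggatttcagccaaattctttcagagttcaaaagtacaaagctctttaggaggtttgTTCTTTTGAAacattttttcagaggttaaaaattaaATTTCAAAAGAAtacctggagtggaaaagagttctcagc
CD59, chr11:33736480-33736729, minus strand: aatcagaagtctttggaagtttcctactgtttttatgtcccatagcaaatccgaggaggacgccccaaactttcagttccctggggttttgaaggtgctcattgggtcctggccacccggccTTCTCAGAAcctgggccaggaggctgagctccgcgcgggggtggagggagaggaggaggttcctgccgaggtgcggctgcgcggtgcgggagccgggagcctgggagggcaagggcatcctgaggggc

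In the CFI window, 2 matches of the STAT6-type begin at -75 and -37 from the start, and a C/EBP-type match on the opposite strand begins at -39 and overlaps the second, so both share the second run of capitals. The CD59 window holds 1 match to TTCNNNGAA, at -128, before the most upstream of its listed starts. Promoters were matched for 7 of the 9 members, C3 and C1S being the members with no entry. Of these 7 genes, 1 held the STAT6-type letters (CFI), 3 held TTCNNNGAA (CFB, C1R and CD59), 2 the C/EBP-type letters (CFI and C1R), 1 the AP-1-type letters (CD59, at another start) and 0 the NF-kB-type letters. Of 35114 promoter windows of the same length in the table, 5.38% held the STAT6-type letters, 6.57% TTCNNNGAA, 9.85% the C/EBP-type, 6.57% the AP-1-type and 5.67% the NF-kB-type letters. Members with several listed starts had a window for each (13 windows in all), and a member was counted if any of its windows matched. The shares over the table are per single window, so they are not like for like with the counts of genes. A match is a description of the letters only.

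CD59 (chr11:33703010-33736479), the inhibitor of the terminal pore, was higher at 24 h of IL-13 than in the 24 h control in all 4 of its probe sets, and 1 of these sets fell in the control against 0 h. The set 200985_s_at had signals of 930, 1249 and 1249 at 0 h, 1218, 1287 and 1199.6 after 4 h, 1639, 1697 and 1648 after 12 h, and 2022, 1883 and 1902 after 24 h of IL-13. The 24 h controls had 684, 839 and 724. Every 12 h and 24 h IL-13 array was above, and every 24 h control array below, all 0 h arrays.

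The difference at 24 h between IL-13 and control was 1.29 ± 0.10 for 200985_s_at (2.45-fold, 95% interval 1.08 to 1.502). It was 0.92 ± 0.10 for 200983_x_at, 0.85 ± 0.09 for 200984_s_at and 0.81 ± 0.11 for 212463_at. In 200983_x_at the signals were 2958, 2779 and 2904 at 24 h of IL-13 and 1427, 1515 and 1322 in the 24 h control. In 200984_s_at they were 2129, 1777 and 2009.9 at 24 h of IL-13 and 908, 1040.5 and 1089 in the control. In no CD59 set did the IL-13 arrays overlap the control arrays.

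Against 0 h, CD59 rose at 24 h of IL-13 in all 4 sets, by 0.54 ± 0.09 to 0.80 ± 0.10 (adjusted p = 0.000141 to 0.00202). The list was drawn up on these 24 h IL-13 arrays, so these p-values are no independent test. At 12 h CD59 rose in 2 sets, 200985_s_at (0.54 ± 0.10, adjusted p = 0.00437) and 212463_at (0.59 ± 0.11, adjusted p = 0.00465). In 200983_x_at the difference was 0.34 (adjusted p = 0.0604) and in 200984_s_at 0.33 (0.0567). In the 24 h control, 200985_s_at fell by 0.50 on the log2 scale against 0 h (SE 0.10, adjusted p = 0.00967), a call lost without array c of the 0 h group (adjusted p = 0.051). The other 3 sets had -0.31 (adjusted p = 0.0685), -0.29 (0.0933) and -0.16 (0.463). With the deposited, median or tested-median scaling, 3 CD59 sets were called lower there, all but 212463_at.

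The set 212463_at had signals of 189, 221 and 200.5 at 0 h, 252, 268 and 219 after 4 h, 317, 308 and 306 after 12 h and 368, 281 and 352 after 24 h of IL-13, against 179, 182 and 191 in the 24 h control. Its 12 h and 24 h IL-13 arrays overlapped, with a difference of 0.05 ± 0.11 (adjusted p = 0.848). The CD59 sets correlated with each other at r = 0.84 to 0.93 over the 15 arrays. The label _x_at on 200983_x_at marks probes that can also bind other transcripts.

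**Figure D2:**
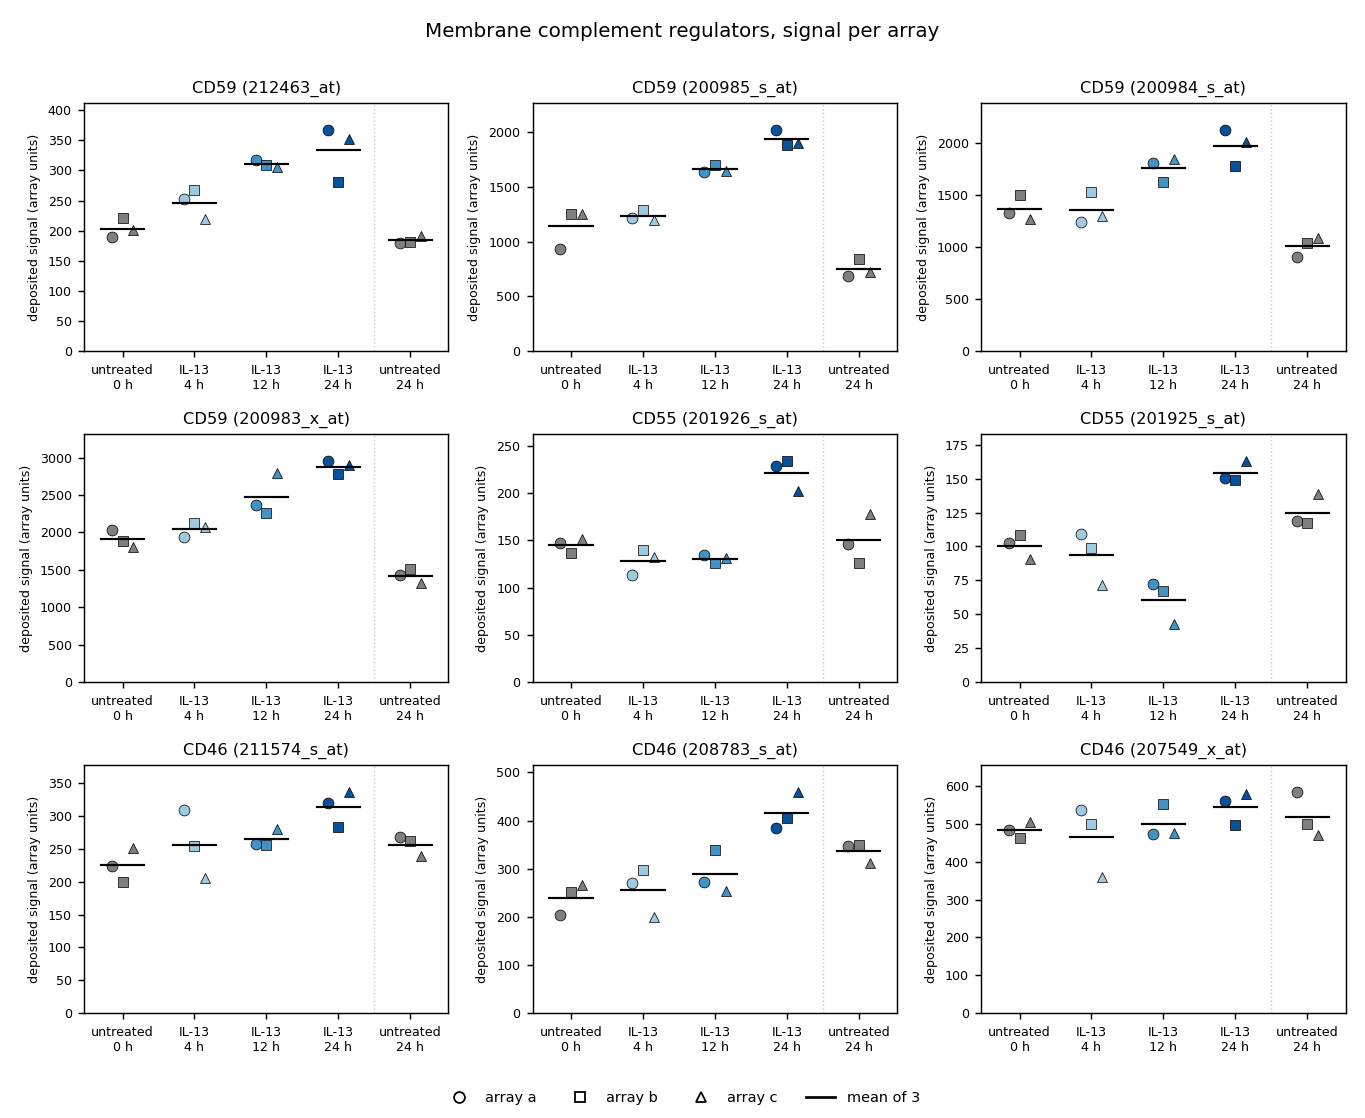
Deposited signal (linear array units, vertical axis from 0) of the 9 probe sets of CD59, CD55 and CD46 on each array, by group; marker shapes are replicate letters and horizontal lines group means. In all 4 CD59 sets the 24 h IL-13 arrays lie above the 24 h control arrays, and CD55 set 201925_s_at is lowest at 12 h of IL-13.

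CD55 (chr1:207321678-207360966), which accelerates the decay of the C3 and C5 convertases, was highest at 24 h of IL-13 in both sets. The set 201926_s_at had signals of 148, 137 and 151 at 0 h, 113, 139.9 and 132.5 after 4 h, 135, 126 and 132 after 12 h, and 229, 234 and 202 after 24 h of IL-13. The 24 h controls had 146, 126 and 178. The 24 h IL-13 arrays exceeded all others, by 0.57 ± 0.13 over the 24 h control. They rose by 0.55 ± 0.13 against 0 h (adjusted p = 0.0136) and by 0.68 ± 0.13 against 12 h (adjusted p = 0.00394). The rise against 0 h was lost without array b of the 0 h group (adjusted p = 0.0524) or array b of the 24 h IL-13 group (0.0507).

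The other CD55 set, 201925_s_at, passed through a low point. Its signals were 103, 108 and 90.5 at 0 h, 109, 99.0 and 71.9 after 4 h, 72.0, 67.4 and 43.0 after 12 h, and 151, 149 and 163 after 24 h of IL-13, against 119, 118 and 139 in the 24 h control. No 12 h array reached a 0 h array, and no 24 h IL-13 array overlapped another group. At 12 h the set fell by 0.63 on the log2 scale against 0 h (SE 0.17, adjusted p = 0.0388), and between 12 h and 24 h of IL-13 it rose by 1.15 ± 0.17 (adjusted p = 0.000508). The 12 h call was lost in 7 of 16 alternative settings, among them leaving out any array of the 0 h group (adjusted p = 0.0984, 0.153 and 0.0647) or array c at 12 h (0.186). At 12 h 201926_s_at differed from 0 h by -0.13 ± 0.13 (adjusted p = 0.643), and the CD55 sets correlated at r = 0.67.

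CD46 (chr1:207752038-207795516), the membrane cofactor of CFI, differed between its 3 sets. The set 208783_s_at had signals of 204, 251 and 265 at 0 h, 269.6, 298 and 200.1 after 4 h, 273, 339 and 254 after 12 h and 385, 404 and 459.99 after 24 h of IL-13, against 347, 350.3 and 311 in the 24 h control. The 24 h IL-13 arrays were above all others and the 24 h control arrays above all 0 h arrays. This set rose by 0.75 ± 0.14 at 24 h of IL-13 against 0 h (1.69-fold, adjusted p = 0.003), while the 24 h control differed from 0 h by 0.48 ± 0.14 (adjusted p = 0.0554). The difference between the 24 h groups was 0.27 ± 0.14 (95% interval -0.02 to 0.56).

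The set 211574_s_at was 0.26 ± 0.13 above the 24 h control at 24 h of IL-13 and rose by 0.43 ± 0.13 against 0 h (adjusted p = 0.0468). That call was lost in 10 of 17 alternative settings, including the omission of any single array of the compared groups (adjusted p = 0.0565 to 0.182) and a fit blocked on the replicate letter (0.0647). The third set, 207549_x_at, of the kind that can bind other transcripts, had signals of 562, 498 and 578 at 24 h of IL-13 and 585, 499.9 and 472 in the 24 h control. Its difference was -0.01 ± 0.13 (95% interval -0.27 to 0.26), and it passed in no comparison. CD46 sets correlated at r = 0.65 to 0.70.

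**Figure D3:**
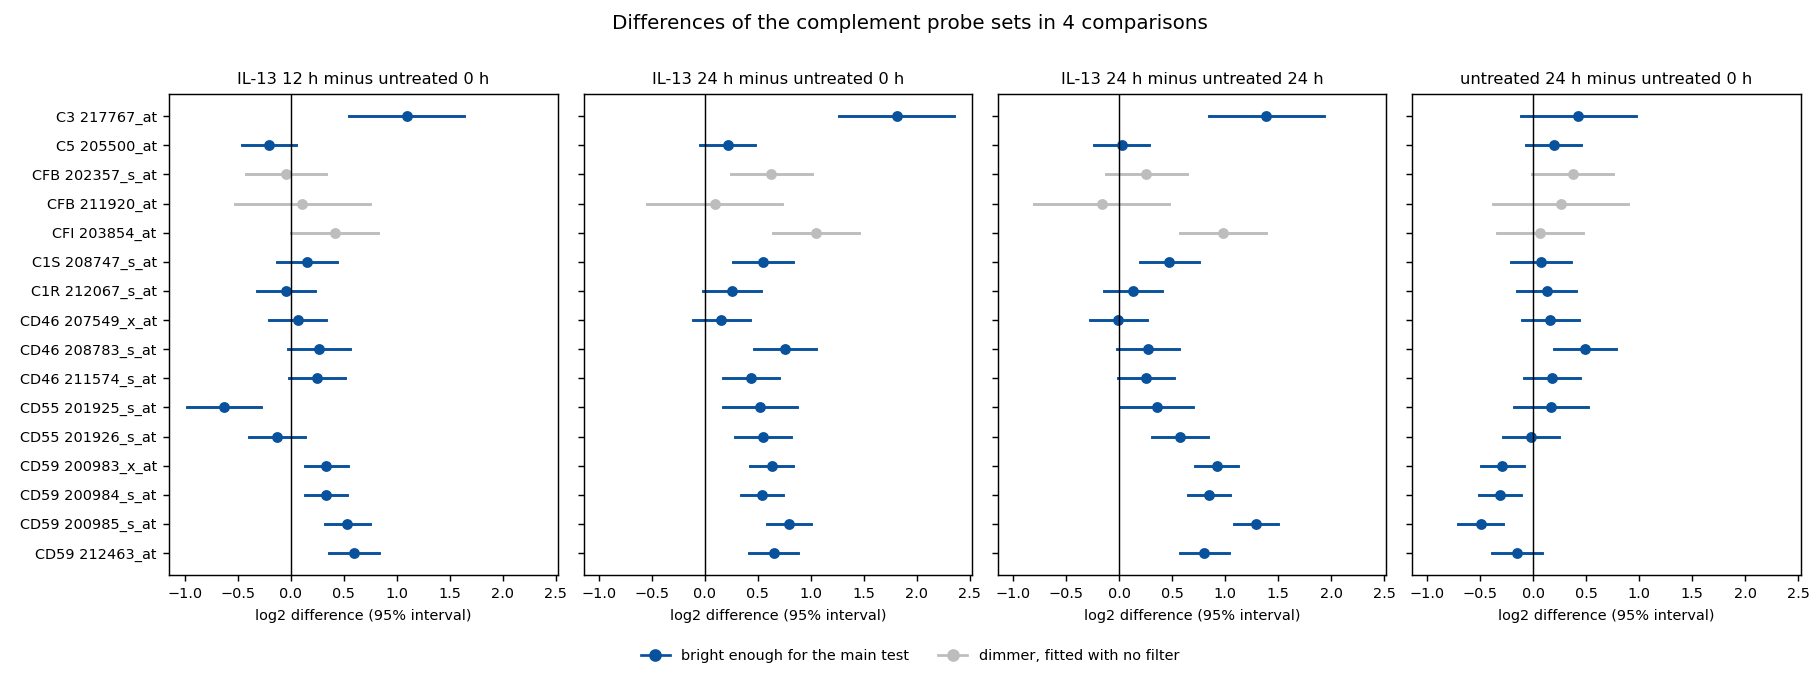
Differences of the 16 complement probe sets on the normalised log2 scale, with 95% intervals from the limma fit (3 arrays a group), in 4 comparisons; blue sets passed the filter on dim signal and grey sets were fitted with no filter. C3 has the largest point estimate in the first 3 comparisons, and CD59 has negative values in the comparison of the 24 h control with 0 h.

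Summed signals of 2 marker lists differed between the 24 h groups. The 3'/5' signal ratio is a measure of RNA integrity that is higher where RNA is less intact. For beta-actin this ratio was higher in both 24 h groups than at 0 h, and for GAPDH it overlapped between the groups. The summed signal of the 7 fibroblast marker genes was 544 to 798 at 24 h of IL-13 and 928 to 970 in the 24 h control, with 2 of the genes past the filter, COL1A1 and DCN. That of the 5 measured alveolar type II genes was 295 to 371 at 24 h of IL-13 and 428 to 548 in the 24 h control, with SFTPB and SFTPC past the filter. Both sums are of deposited signal before normalisation, and most of their probe sets were under the filter. Array medians of that signal were 56.7 to 64.4 at 24 h of IL-13 and 66.3 to 72.5 in the 24 h control. The 3'/5' signal ratio of beta-actin was 1.09 to 1.23 at 24 h of IL-13 and 1.11 to 1.24 in the 24 h control, against 0.930 to 1.06 at 0 h. For GAPDH it was 0.854 to 0.900 at 24 h of IL-13, 0.875 to 0.918 in the 24 h control and 0.862 to 0.907 at 0 h. The part of these sums and ratios in the differences was not tested.

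The genes whose pattern was most like that of C3 were sought among 9837 tested sets with 1 gene symbol, by Pearson's r over the 15 arrays. MBNL2, a splicing regulator, had r = 0.89, with signals of 340.7 ± 35.2 at 24 h of IL-13 and 134 ± 32.2 in the 24 h control (SD, n = 3). It was followed by NNMT, nicotinamide N-methyltransferase (0.88), HPGD, which degrades prostaglandins (0.87), GSN, the actin-severing protein gelsolin (0.87), and ELOVL5, a fatty acid elongase (0.87). HPGD signal was 652 ± 66.2 at 24 h of IL-13 and 432 ± 54.6 in the 24 h control. Among the members themselves, r with C3 was 0.72 to 0.78 for the CD59 sets, 0.74 for CFI, 0.66 for C1S and 0.16 for C5. It was 0.15, 0.67 and 0.62 for the CD46 sets, 0.19 and 0.58 for CD55, 0.41 for C1R, and 0.43 and 0.05 for CFB. The arrays share group means in all these values, so they describe likeness of pattern over 5 groups.

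The rest of the complement system was read from a list of 45 further genes, of which 37 had a probe set and 12, with 16 sets, passed the filter. These were C1QBP, C4BPA, C6, CD93, CFD, CFHR2, CLU, CPN1, FCN2, ITGAM, MASP2 and THBD. Limma called 0 of these 16 sets in each of the 7 comparisons, with 15 unadjusted p under 0.05 over all of them, 4 of these between 24 h of IL-13 and the 24 h control, where 2550 of the 11107 sets had one. Clusterin (CLU), a fluid-phase inhibitor of the terminal complex, had differences of -0.36 ± 0.15, -0.32 ± 0.15 and 0.14 ± 0.17 in its 3 sets between 24 h of IL-13 and the 24 h control, and is singled out after its values were seen. The list's median difference there was -0.09, against 0.00 over all tested sets.

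C3 and CFB are known acute-phase genes, so a list of 34 other acute-phase genes and their regulators was read in the same fit. Of these, 29 had a probe set and 17, with 24 sets, passed the filter. Between 24 h of IL-13 and the 24 h control, 3 sets were higher and 1 lower, and at 24 h of IL-13 against 0 h, 6 sets were higher and 0 lower. Over all tested sets these shares were 3.48% higher and 2.97% lower in the first comparison, and 2.91% higher and 3.27% lower in the second. The list's median was 0.13 in the first comparison and 0.15 in the second, against 0.00 over all tested sets in both. The higher sets belonged to the fibrinogen chains and to IL6ST, the signalling receptor chain shared by the IL-6 family.

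FGG, the fibrinogen gamma chain, had signals of 356, 270.1 and 386 at 24 h of IL-13 and 213, 219 and 224 in the 24 h control. It rose by 0.58 ± 0.13 (adjusted p = 0.0151), a call lost without array a of the control (adjusted p = 0.059) or array a (0.0588) or c (0.0915) of the IL-13 group. IL6ST set 212195_at had signals of 1030.1, 984 and 1269.9 at 24 h of IL-13 and 675, 645 and 597 in the 24 h control, a rise of 0.66 ± 0.13 (adjusted p = 0.00538). Set 212196_at of IL6ST rose by 0.60 ± 0.12 (adjusted p = 0.00569), and 3 further IL6ST sets did not pass, with differences of 0.15 to 0.41.

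FGA and FGB are the other fibrinogen chains. FGA signal was 312, 384 and 345 at 24 h of IL-13 and 175, 294 and 313 in the 24 h control, against 151, 129.7 and 120.2 at 0 h. FGA rose against 0 h in both groups, by 1.22 ± 0.20 at 24 h of IL-13 (adjusted p = 0.00139) and by 0.81 ± 0.20 in the control (adjusted p = 0.0325), and the second call was lost without any array of the 0 h group or without array b or c of the control (adjusted p = 0.0582 to 0.141). FGB set 204988_at rose by 1.02 at 24 h of IL-13 (adjusted p = 0.0042), and in the control its difference from 0 h was 0.63 (adjusted p = 0.0788). Between the 24 h groups FGA differed by 0.41 ± 0.20 (adjusted p = 0.243) and FGB set 204988_at by 0.40 ± 0.20 (adjusted p = 0.245).

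RELA, an NF-kB subunit, was the lower set. Its set 201783_s_at had signals of 276, 251 and 255 at 24 h of IL-13 and 399, 395 and 475 in the 24 h control, and fell by 0.69 on the log2 scale (SE 0.13, adjusted p = 0.00468). The difference was 0.01 ± 0.19 (adjusted p = 0.983) in its second set, 209878_s_at. In the 24 h control against 0 h, 2 sets of the list were higher (FGA and IL6ST 212195_at) and 1 was lower, STAT3 set 208991_at (-0.35 ± 0.10, adjusted p = 0.0481). Of all tested sets 2.02% were higher and 2.29% lower there. The IL6ST call was lost in 10 of 18 alternatives, among them deposited scaling (adjusted p = 0.055), median scaling (0.24), tested-median scaling (0.0773) and leaving out array b or c at 0 h or any control array (0.0517 to 0.0887). Between 24 h and 12 h of IL-13, 3 sets were higher, those of FGG, IL6ST (212195_at) and CEBPB (0.52 ± 0.13, adjusted p = 0.0244). Of all tested sets 3.15% were higher and 1.93% lower there. CEBPB signals were 2959, 2627 and 2217 at 24 h of IL-13 and 2923, 2123 and 3118 in the 24 h control, which overlap. STAT3 and CEBPB, both transcription factors of the acute-phase response, are named after their values were seen, and these 2 calls were not followed in the alternatives. At 12 h of IL-13 1 set of the list passed against 0 h, 212196_at of IL6ST (0.50 ± 0.12, adjusted p = 0.0206). That call was lost without array a or b at 0 h or array a or c at 12 h (adjusted p = 0.0616 to 0.108). Of all tested sets 1.58% were higher and 2.41% lower in this comparison.

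**Figure D4:**
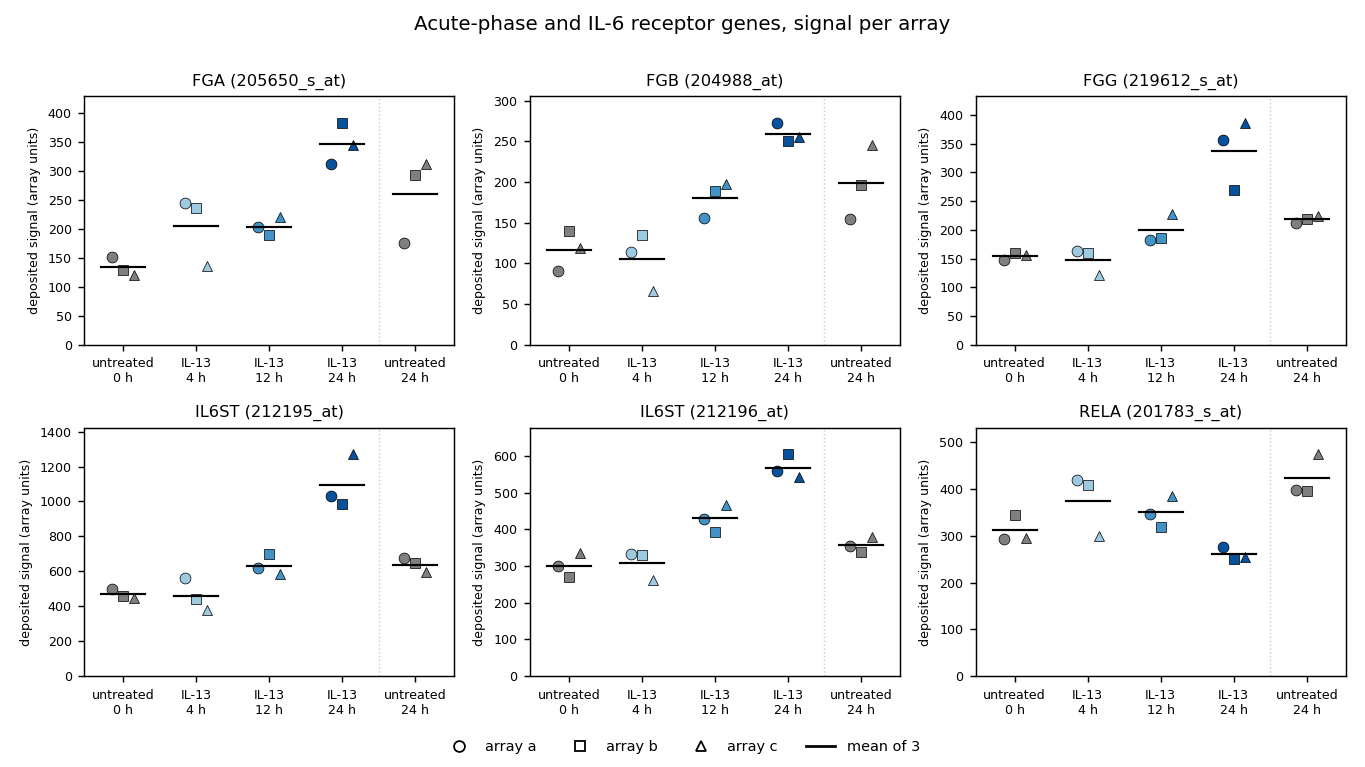
Deposited signal (linear array units, vertical axis from 0) of 6 probe sets of fibrinogen genes, IL6ST and RELA on each array, by group; marker shapes are replicate letters and horizontal lines group means. FGA and FGB overlap or nearly meet between the 24 h groups, while FGG and both IL6ST sets lie higher and RELA lower at 24 h of IL-13.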

How the data were processed

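RNA from A549 cells was hybridised to 15 arrays. The values are the authors' deposited intensity per probe set on a linear scale. Their software is not stated in the labels or files. The mean of every array after trimming 2% at each end was about 150 units, so the authors' values were already scaled per array. Gene symbols came from the platform annotation: of 22283 probe sets, 68 are array controls, 19065 carry 1 symbol, 1043 several and 2107 none. Gene positions and promoters came from RefSeq tables of GRCh38.p14.

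A pseudocount of 20 was added, log2 was taken, and the arrays were quantile normalised because their medians differed by up to 0.352 log2, above a tolerance of 0.1. Differences are therefore on a log2(intensity + 20) scale, which understates changes of dim sets. Sets with a mean above 6.33 (the 50th percentile) were tested one by one, 11107 in all, with limma 3.58.1 in R 4.3.3: 1 mean per group over 15 arrays (10 residual degrees of freedom), a variance trend, two-sided tests, Benjamini-Hochberg adjustment and a threshold of 0.05, in 7 comparisons. The steps were tested on simulated data with known changes. Precision is limited by 3 arrays per group. CFB and CFI were fitted separately with no filter.

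The members, gene lists and tests were chosen with earlier results of these data known. For members no p is given between the 24 h groups, and for C3 none that uses the 24 h IL-13 arrays. For other members, p-values that use the 24 h IL-13 arrays are no independent test, because the list was drawn up on those arrays. Named genes are all members, up to 6 sets per list with the smallest p among called ones, the tested complement genes by name, and the 5 sets most correlated with C3. Alternatives were other scalings, pseudocounts of 1 and 62, no filter or one at the 75th percentile, 1 set per gene, only the compared groups, no variance trend, array weights, a replicate block and leaving out each array. Same-lettered arrays were checked for pairing: their deviations correlated at -0.208 to 0.102, so letters were not taken as pairs.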

Additional observations from a re-analysis of the deposited data

How the results depend on the processing

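Over the 153 differences followed for members and named list genes, CFB and CFI taken with no filter, 0 alternatives turned the direction of a call. Of 38 calls, 14 were lost in at least 1 alternative. The C3 difference between 24 h of IL-13 and the 24 h control was 1.61 with a pseudocount of 1 and 1.07 with 62, and lay between these in all 17 alternatives. Member sets called at 24 h of IL-13 against the 24 h control fell from 7 to 4 with 1 set per gene, which leaves 7 member sets, and against 0 h from 9 to 5. Over the whole array, 716 calls became 491 in the first of these comparisons and 686 became 472 in the second. In the 24 h control against 0 h, 1 set was called. With deposited, median or tested-median scaling it was 3, with the 75th percentile filter or array weights 2, and with 1 set per gene or only the compared groups 0. Over the whole array, the 478 calls there became 588, 1358 and 586 with these scalings. They became 446 with that filter, which leaves 9 member sets, and 559 with array weights. With 1 set per gene they became 244, and with only the compared groups 340. Leaving out 1 array gave 0 (without array c of 0 h, where 223 of all sets were called) to 1. At 12 h of IL-13 against 0 h, 4 became 2 with no filter or only the compared groups and 1 with 1 set per gene. Over the whole array, 443 calls became 304, 422 and 287 in these settings. Leaving out 1 array gave 2 (without array a of 0 h or array c of 12 h) to 6 (without array b of 12 h). Of all sets, 254, 192 and 301 were called in these 3 fits. Between 24 h and 12 h of IL-13, the 2 CD55 calls were lost in 0 alternatives. Some other member sets passed only in certain alternatives, among them C5 (6 of 18) and CD46 208783_s_at (7 of 18). Median scaling moved the median of all tested sets to 0.13 between 24 h of IL-13 and the 24 h control and to -0.15 between the 24 h control and 0 h. The other complement list had 0 calls over the 7 comparisons. It had some with deposited, median or tested-median scaling, with no filter, and without array b of the 24 h control or of 24 h IL-13. The calls of the acute-phase list also varied over the alternatives. Whole-array calls between the 24 h groups went from 716 to 785, 1446 and 811 with these scalings and to 431 with no filter. Nothing about either list is read from these changes. Apart from alternatives built on fewer sets or arrays, the cause was not tested.

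The C1S difference between the 24 h groups kept its direction but left the threshold in 9 of 18 alternatives, and that of CD55 201926_s_at with only the compared groups. The replicate letter is shared by the groups, but the letters share only a number. With it as a replicate block, 6 member sets and 553 of all sets were called between 24 h of IL-13 and the 24 h control. In the 24 h control against 0 h these counts were 1 and 382. At 4 h of IL-13 against 0 h they were 0 and 82, and at 12 h against 0 h 4 and 368. The C3 difference between the 24 h groups stayed at 1.39. What depth of signal limits is CFB and CFI, both under the filter. With no filter the CFI difference between the 24 h groups was 0.89 to 1.09 when single arrays were left out. It passed the threshold with all arrays, where 431 of all sets did with no filter, but left it in 4 of these 6 fits. The members were chosen on that comparison, so this is a description only.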
